A study of Mus musculus with 6 samples.

Results

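The imprinted growth-control genes described here are 9 rows of a table of 53465 genes, chosen by symbol as imprinted genes tied to stem cell quiescence: H19, Meg3, Dlk1, Igf2r, Grb10, Peg3, Mest, Plagl1 and Ndn. Each symbol occurs once in the table. RNA was sequenced from bone marrow cells of wild-type mice, sorted as LT-HSCs (the long-term class of haematopoietic stem cell) for c-Kit and Sca-1 and against lineage markers, CD34 and Flk2. Carnosine, which joins beta-alanine to histidine, had been given to one group (3 libraries) and saline to the other (3 libraries), in both cases after 5.0 Gy of total body irradiation. No group was left unirradiated. Nothing in the labels ties a library to a mouse of its own. The p-values therefore speak of spread from library to library, and that spread may be technical.

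An imprinted gene is read mainly from the copy inherited from one parent, because methylation laid down at CG positions in the egg or sperm sets the copies apart. The mark sits at a control region and can lie on the silent or on the expressed copy, as at Igf2r, where it lies on the expressed maternal copy and keeps Airn silent there. Many such genes set growth: in the mouse Igf2, the paternally expressed growth factor, is opposed by the maternally expressed Igf2r, which removes IGF2, and by H19, whose control region restrains Igf2. In mouse blood stem cells, the control region of H19, the Dlk1 and Meg3 locus, the maternal copy of Grb10 and Ndn have each been tied to quiescence or to regrowth of the pool. The counts here are per gene, so the parental copy that reads came from cannot be told.

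The start regions of Igf2r and Grb10, the pair of genes that changed, are shown because methylation at CG is the mark that imprinting uses. They were chosen as start sites and were not placed against the control regions where that mark sits. The windows run from 250 bases before to 50 bases after a RefSeq start site (build GRCm38.p6), are written 5′ to 3′ on the strand of the gene, and carry each CG in capitals. Of the transcripts that GENCODE M21 annotates, 1 of 3 for Igf2r starts in its window and 1 of 9 for Grb10 starts in each of its 2 windows, so other start sites are not shown, and a count per gene does not say which was used. The windows are chr17:12769657-12769956 on the minus strand for Igf2r, and chr11:12037371-12037670 (window 1) and chr11:12027922-12028221 (window 2), both on the minus strand, for Grb10.
Igf2r: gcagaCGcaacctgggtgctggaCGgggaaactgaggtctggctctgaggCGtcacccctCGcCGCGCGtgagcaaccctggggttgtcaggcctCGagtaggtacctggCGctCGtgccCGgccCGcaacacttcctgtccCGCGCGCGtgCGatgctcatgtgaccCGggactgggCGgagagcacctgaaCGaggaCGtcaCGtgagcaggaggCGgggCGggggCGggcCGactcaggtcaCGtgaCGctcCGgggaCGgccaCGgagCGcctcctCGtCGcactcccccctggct
Grb10 window 1: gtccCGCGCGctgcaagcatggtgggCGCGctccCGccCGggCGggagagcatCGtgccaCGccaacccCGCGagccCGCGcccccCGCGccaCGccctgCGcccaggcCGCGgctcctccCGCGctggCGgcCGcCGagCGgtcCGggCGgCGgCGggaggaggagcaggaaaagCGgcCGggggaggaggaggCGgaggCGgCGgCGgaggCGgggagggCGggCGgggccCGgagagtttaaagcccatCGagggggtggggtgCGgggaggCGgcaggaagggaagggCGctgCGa
Grb10 window 2: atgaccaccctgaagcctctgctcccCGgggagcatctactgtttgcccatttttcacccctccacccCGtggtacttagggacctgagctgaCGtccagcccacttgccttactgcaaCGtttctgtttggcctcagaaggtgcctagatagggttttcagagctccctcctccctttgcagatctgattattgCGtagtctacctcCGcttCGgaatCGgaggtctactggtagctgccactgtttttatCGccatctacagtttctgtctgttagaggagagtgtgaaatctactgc
The letters CG occur 34 times in the window of Igf2r, 45 times in the first window of Grb10 and 9 times in its second. The median over 32851 such windows of all genes is 7. A count at least as high as that of Igf2r was found in 7.7% of all windows, as that of the first window of Grb10 in 1.9%, and as that of the second in 45.8%. Methylation was not measured in these libraries.

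Total counts ran from 12730837 to 13651553 in the carnosine libraries and from 12602067 to 16866534 in the saline libraries. Of the 15533 genes with enough counts to test, 3038 were higher and 3077 lower in the carnosine libraries at a Benjamini-Hochberg adjusted p under 0.05 in the quasi-likelihood test of edgeR, so a call was common. Transcripts of Flt3 and Cd34, which encode the proteins Flk2 and CD34 that the sort excluded, were at 177.1 to 219.5 and 297.6 to 346.1 CPM over the 6 libraries. CPM is the count per 1000000 counts of a library, scaled by the TMM method of edgeR. Of the genes known to mark LT-HSCs, Vwf was at 29.8 to 111.5 CPM, Meis1 at 49.2 to 87.6, Mllt3 at 49.3 to 55.2, Hlf at 17.5 to 32.7, Slamf1 at 13.4 to 29.2 and Mecom at 9.35 to 23.0. Procr, a surface protein of these cells, was at 4.56 to 5.88 CPM, and Hoxb5, a transcription factor, had 59 counts in all.

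Of the 9 imprinted growth-control genes, 1 rose with carnosine (Igf2r), 1 fell (Grb10), 1 was tested and did not pass (Mest), and 6 had too few counts to test (H19, Meg3, Dlk1, Peg3, Plagl1 and Ndn). Over all tested genes 39.4% were called, 19.6% higher and 19.8% lower, so that 2 calls among 3 tested members are no result about the set. The groups did not overlap in CPM for Igf2r and Grb10, nor for 52.3% of all tested genes. In bulk samples, fewer cells of a type and less RNA per cell cannot be told apart. The filter asked for 0.733 CPM, the worth of 10 counts in a library of median size, in at least 3 libraries. The plot of the 9 genes by library shows both the change in Igf2r and Grb10 and how few reads the others had.

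**Figure D1:**
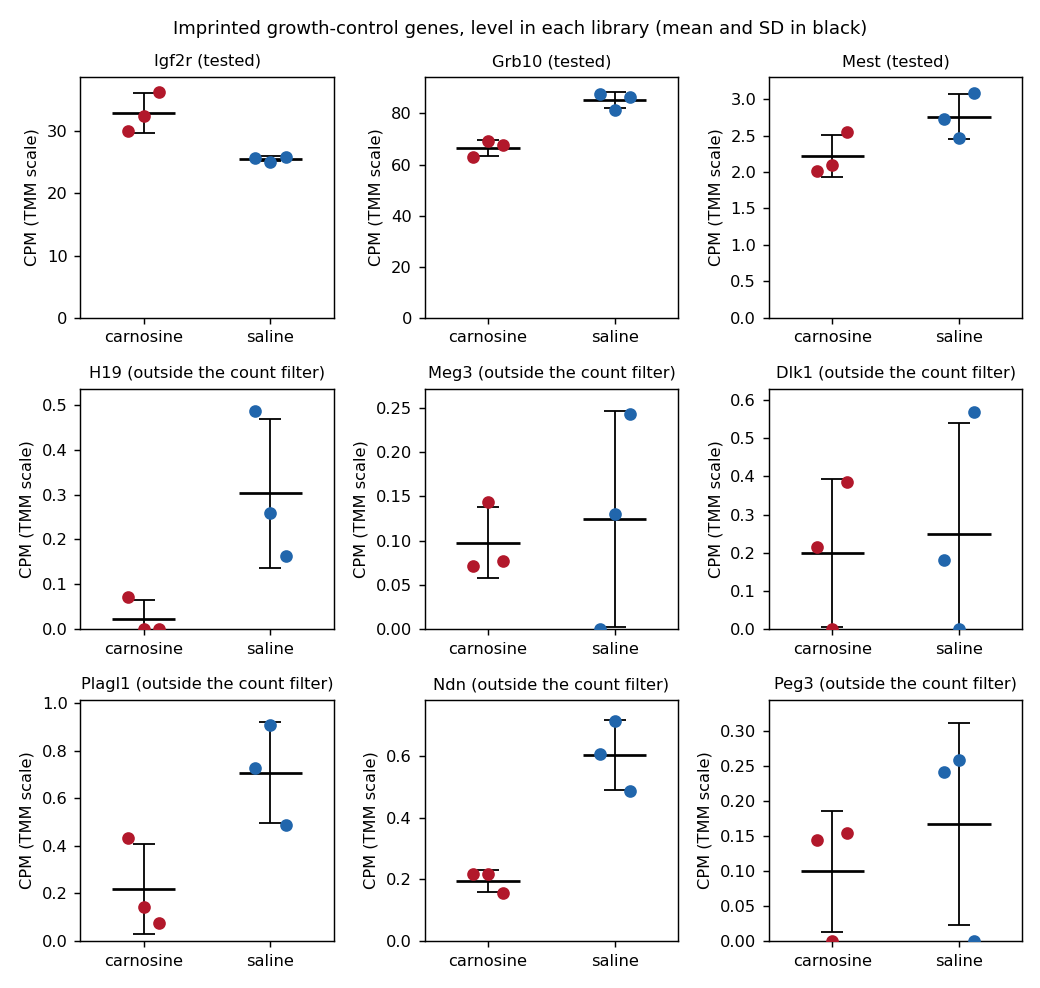
Level of each imprinted growth-control gene in each library, in CPM on the TMM scale (the vertical axis starts at 0 and differs between panels). Points are libraries, with the mean and SD of 3 libraries per group in black. Igf2r stands at 29.98 to 36.3 CPM in carnosine libraries and 25.1 to 25.8 CPM in saline libraries, Grb10 at 63.1 to 69.1 CPM in carnosine libraries and 81.5 to 87.6 CPM in saline libraries, while the 6 genes outside the count filter stay under 1 CPM.

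Igf2r, on chromosome 17 (12682406 to 12769664, minus strand, GRCm38; ENSMUSG00000023830), encodes the receptor that takes IGF2 up for breakdown and also carries enzymes tagged with mannose 6-phosphate to lysosomes. It had 29.98, 32.5 and 36.3 CPM in the carnosine libraries, against 25.8, 25.1 and 25.8 CPM in the saline libraries. Every carnosine library lay above every saline library, and the carnosine libraries were spread wider. The means were 32.9 ± 3.18 CPM with carnosine and 25.6 ± 0.391 CPM with saline (SD, n = 3 each). The log2 fold change was 0.36 ± 0.0781 (SE), with a 95% interval of 0.18 to 0.55, a level 28.7% higher with carnosine (edgeR adjusted p = 0.0091). The antisense RNA Airn, which lies on the opposite strand within Igf2r and silences the paternal copy in mice, shares no exon base with it. Airn had 11 counts in the carnosine libraries and 17 in the saline libraries, too few to test, and its CPM did not overlap between groups. The same held, with carnosine lower, for 12.7% of genes outside the filter with at least 10 counts in all. A link between the levels of Airn and Igf2r was not tested.

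IGF2, the ligand that Igf2r clears, was not seen as a transcript: Igf2 had 0 counts in all 6 libraries. A count of 0 allows a level of up to 0.216 to 0.232 CPM in a carnosine library and 0.182 to 0.244 CPM in a saline library, which covers counting error only. M6pr, the other receptor for mannose 6-phosphate and no known receptor for IGF2, was at 285.5 ± 13.3 CPM with carnosine and 271.2 ± 6.85 CPM with saline (SD, n = 3 each), without passing (a log2 fold change of 0.07, 95% interval -0.02 to 0.17, edgeR adjusted p = 0.17). It was called higher in 3 of 17 alternative settings (adjusted p down to 0.032).

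Grb10, on chromosome 11 (11930508 to 12038683, minus strand, GRCm38; ENSMUSG00000020176), encodes an adaptor that binds the insulin and IGF1 receptors and damps their signal. Its level was 63.1, 69.1 and 67.6 CPM in the carnosine libraries, against 87.6, 81.5 and 86.5 CPM in the saline libraries. The groups did not overlap, and no library stood apart in either. Grb10 averaged 66.6 ± 3.11 CPM with carnosine and 85.2 ± 3.25 CPM with saline (SD, n = 3 each). It fell by 0.36 on the log2 scale (SE 0.0512, 95% interval -0.48 to -0.24), a percent change of -21.8 (edgeR adjusted p = 0.0015).

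Mest, on chromosome 6 (30723547 to 30748465, plus strand; ENSMUSG00000051855), encodes a protein with the fold of a hydrolase and is read from the paternal copy. It had 28, 29 and 33 counts in the carnosine libraries, against 45, 38 and 38 in the saline libraries, or 2.01, 2.09 and 2.55 CPM against 2.73, 2.47 and 3.09 CPM. The highest carnosine library lay just above the lowest saline library. The log2 fold change was -0.31 ± 0.17 (SE), with a 95% interval of -0.71 to 0.09, and did not pass (edgeR adjusted p = 0.21). The exons of Mest overlap those of Copg2, on the opposite strand, over 912 bases (23.1% of the exon bases of Mest). Copg2, with 5461 counts in all against 211 for Mest, was at 66.3 ± 1.45 CPM with carnosine and 62.4 ± 0.325 CPM with saline (SD, n = 3 each). The kit was stranded, but whether counting used the strand is not stated, so part of the counts of Mest could come from Copg2.

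H19, Plagl1 and Ndn had fewer counts in every carnosine library, once scaled for depth, than in any saline library, but all at under 1 CPM. Among the 5023 genes outside the filter with at least 10 counts in all, the groups did not overlap, with carnosine lower, for 12.7% and, with carnosine higher, for 8.18%. Of the 5 members in that class, 3 did so with carnosine lower (H19, Plagl1 and Ndn) and 0 with carnosine higher. The exact two-sided permutation test over libraries gave p = 0.10 for each of the 3, the smallest value that 3 against 3 libraries allow.

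H19, a long noncoding RNA read from the maternal copy (chromosome 7, 142575529 to 142578143, minus strand; ENSMUSG00000000031), had 1, 0 and 0 counts in the carnosine libraries, against 8, 4 and 2 in the saline libraries. The pooled ratio of carnosine to saline was 0.0775, with a 95% counting interval of 0.00183 to 0.51 that covers counting error only. Ndn, on chromosome 7 (62346569 to 62350262, plus strand; ENSMUSG00000033585), encodes necdin, a growth suppressor induced by p53. It had 3, 3 and 2 counts in the carnosine libraries, against 10, 11 and 6 in the saline libraries, a ratio of 0.322 (0.126 to 0.728). Plagl1, a zinc finger transcription factor that slows growth (chromosome 10, 13060504 to 13131694, plus strand; ENSMUSG00000019817), had 6, 2 and 1 counts in the carnosine libraries, against 12, 14 and 6 in the saline libraries. Its ratio was 0.305 (0.128 to 0.655), and the single carnosine library with 6 counts lay close to the saline library with 6. Without that library, carnosine replicate 1, the ratio of Plagl1 was 0.155. With no filter on low counts, edgeR called Ndn (adjusted p = 0.026) and gave adjusted p = 0.053 for H19 and 0.073 for Plagl1.

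For Dlk1, Meg3 and Peg3 a difference was not detectable at this depth. Dlk1, a membrane protein akin to Notch ligands (chromosome 12, 109452823 to 109463336, plus strand; ENSMUSG00000040856), had 3, 0 and 5 counts in the carnosine libraries, against 3, 0 and 7 in the saline libraries. Meg3, the maternally read noncoding RNA of the same locus (chromosome 12, 109541001 to 109571726, plus strand; ENSMUSG00000021268), had 1, 2 and 1 counts in the carnosine libraries, against 0, 2 and 3 in the saline libraries. Each had a ratio of 0.868 of carnosine to saline, with counting intervals of 0.298 to 2.44 for Dlk1 and 0.172 to 4.03 for Meg3. Without saline replicate 3 both ratios were above 1, at 2.09 for Dlk1 and 1.57 for Meg3. Rian, a noncoding RNA downstream of Meg3, had 4 counts in each group. Peg3, a paternally read zinc finger protein (chromosome 7, 6703892 to 6730431, minus strand; ENSMUSG00000002265), had 2, 0 and 2 counts in the carnosine libraries, against 4, 4 and 0 in the saline libraries, a ratio of 0.543 (0.12 to 2.03). These 3 genes overlapped between groups, with exact two-sided permutation p = 1.0 for Dlk1 and 0.60 for Peg3. Meg3 had under 10 counts and was given no test.

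Set against each other per kilobase of annotated exon, Grb10 was the most abundant of the 9 genes in both groups and Igf2r the next. Grb10 was at 7.33 ± 0.343 CPM per kilobase with carnosine and 9.38 ± 0.358 with saline, Igf2r at 3.54 ± 0.342 with carnosine and 2.75 ± 0.042 with saline (SD, n = 3 each). Mest came after them, at 0.562 ± 0.0734 with carnosine and 0.70 ± 0.0789 with saline. The ranges of Grb10, Igf2r and Mest over libraries did not touch each other, and each lay above the other 6. Ndn, Plagl1, H19, Dlk1, Peg3 and Meg3 all lay at or below 0.0683 in carnosine libraries and 0.197 in saline libraries. Ndn lay above Meg3 and Peg3, and Plagl1 above Meg3, in every library of each group, while neighbours in the order of the means overlapped within each group. By CPM, Grb10 stood at the 78.6th percentile of the tested genes, Igf2r at the 56.0th and Mest at the 18.0th.

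The genes closest to Igf2r and Grb10 in their pattern over the 6 libraries were found by the root mean square difference of centred log2 CPM among 11410 genes of at least 5 CPM. They were Golga1, Ppp1r13l and Brca1 for Igf2r (differences of 0.0346 to 0.0365) and Gm10240, Slc45a4 and Gm44870 for Grb10 (0.0179 to 0.0203). All 6 libraries share the group contrast, so this is a description of levels.

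Genes reported as imprinted in some mouse tissue fell more often than they rose. Of 83 listed, 82 were in the table, 17 had 0 counts throughout and 47 were tested, among them Igf2r, Grb10 and Mest. In the list 5 rose and 17 fell, 46.8% of those tested against 39.4% of all tested genes, and the median log2 fold change was -0.20 against -5.03e-05 over all genes. Without the 9 genes described above, 4 rose and 16 fell of 44, with a median of -0.20. The falls of at least 2-fold numbered 4 of 47 in the list, and 3.53% of all tested genes. Zdbf2 and Nap1l5, among those 4 and among the 17 that fell, passed the filter through their saline libraries alone. The count of deep falls is therefore no support for an excess. In the fits of FPKM values, which gave no value for low genes such as Peg10 and Sgce, 11 fell.

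**Figure D2:**
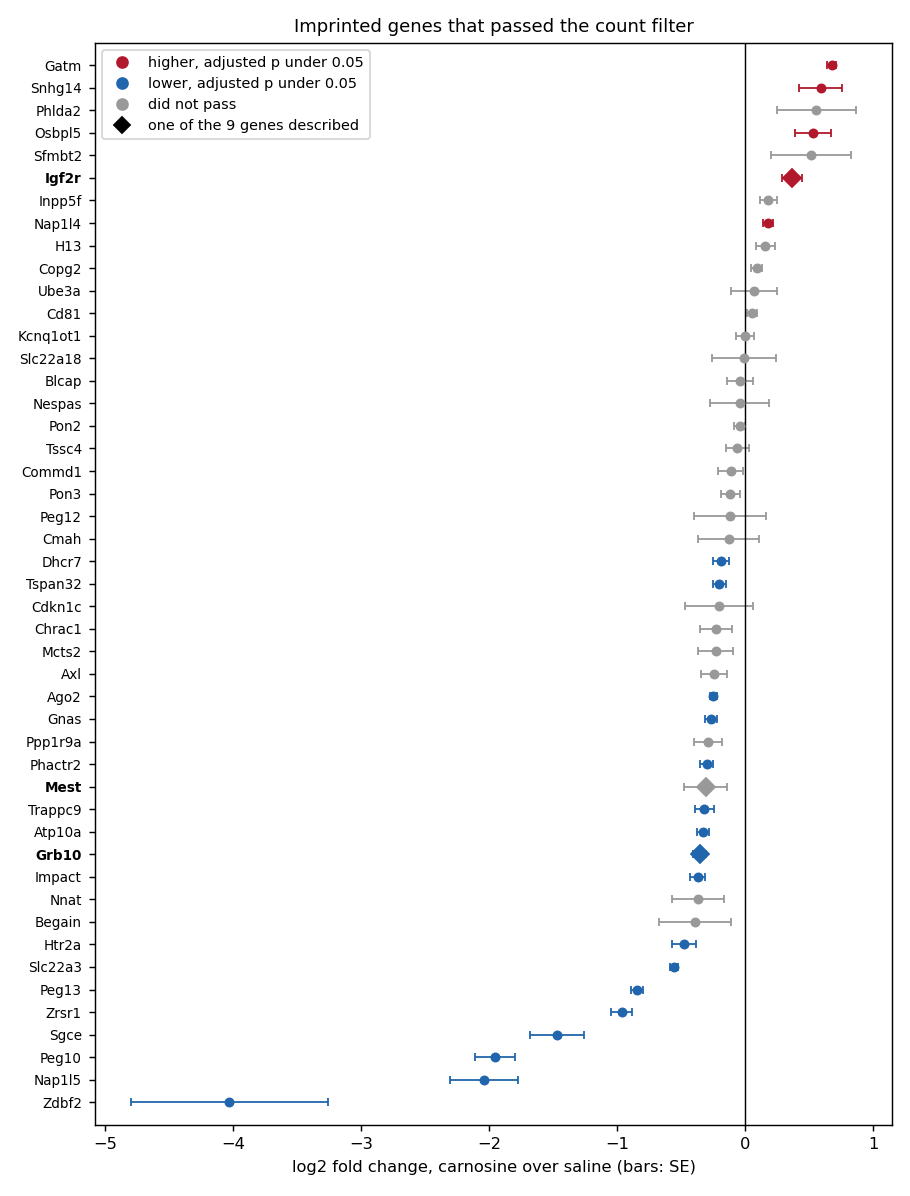
Log2 fold change (carnosine over saline) of the 47 imprinted genes that passed the count filter, with SE bars. Colours give the edgeR call at an adjusted p of 0.05, and diamonds with bold names mark Igf2r, Mest and Grb10. The 17 genes that fell reach further from 0, to -4.03 for Zdbf2, than the 5 that rose, which end at 0.67 for Gatm. Zdbf2 and Nap1l5 passed the count filter through their saline libraries alone.

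The deepest falls were in genes read from the paternal copy in mice and lay at low levels. Peg10, a gene derived from a retrotransposon, had 1.37, 2.02 and 1.70 CPM in the carnosine libraries, against 6.85, 6.36 and 6.58 CPM in the saline libraries (log2 fold change -1.96 ± 0.16, SE, edgeR adjusted p = 9.1e-05). Its neighbour Sgce, which encodes epsilon-sarcoglycan, was at 1.64 ± 0.473 CPM with carnosine and 4.56 ± 0.438 CPM with saline (SD, n = 3 each), and its log2 fold change was -1.47. Zdbf2 had 4 counts over the carnosine libraries and 76 over the saline libraries, with a fitted change of -4.03 ± 0.77 (SE). All 4 carnosine counts of Zdbf2 were in replicate 1. With a library left out the fitted change ranged over -7.64 to -3.47, and the lowest value, without carnosine replicate 1, has only zeros on the carnosine side and is no bound. Nap1l5 had 19 counts with carnosine and 86 with saline (log2 fold change -2.04 ± 0.27, SE). Zdbf2 and Nap1l5 lay under the filter's 0.733 CPM in every carnosine library and were tested only through their saline libraries. A gene as low in both groups would not have been tested, so their lack of overlap is no support for a fall. None of these 4 genes, picked as the deepest falls, overlapped between groups. The same held for 52.3% of all tested genes.

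Among more abundant imprinted genes, Peg13, a noncoding RNA, fell to 44.2 ± 0.842 CPM with carnosine, against 79.4 ± 3.05 CPM with saline (SD, n = 3 each; log2 fold change -0.85). Slc22a3, a cation transporter gene near Igf2r on chromosome 17, fell to 98.9 ± 0.739 CPM, against 145.6 ± 4.78 CPM with saline (log2 fold change -0.56 ± 0.034, SE), the opposite direction to Igf2r. Zrsr1, a splicing factor gene, fell to 11.6 ± 0.723 CPM, against 22.6 ± 1.44 CPM with saline. Ago2, the slicer of RNA interference, fell by 0.25 on the log2 scale. The 5 that rose were Igf2r, Gatm, an enzyme of creatine synthesis (175.5 ± 0.906 CPM with carnosine and 110.0 ± 4.86 CPM with saline, SD, n = 3 each), the noncoding RNA Snhg14 (log2 fold change 0.59), Osbpl5 (0.53) and Nap1l4 (0.18). Osbpl5 and Nap1l4 were named after their values were seen, and Osbpl5 lost its call without carnosine replicate 2 or 3 or saline replicate 1 (adjusted p up to 0.07). Snhg14 lost its call in 5 of 14 alternative settings, DESeq2 and without carnosine replicate 2 or 3 or saline replicate 1 or 2 (adjusted p up to 0.14). Without carnosine replicate 2 or 3, 3 imprinted genes rose in place of 5.

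Genes of insulin and IGF signalling, on which Igf2r and Grb10 act, moved both ways. Of 49 listed, 36 were tested, of which 4 rose and 10 fell (38.9%, against 39.4% of all tested genes), with a median log2 fold change of -0.089. Without carnosine replicate 3, in the FPKM fits and with scaling by library totals only, 6 fell, and with totals only 7 rose. The IGF1 receptor, a partner of Grb10, fell: Igf1r had 162.2, 157.6 and 161.8 CPM in the carnosine libraries, against 221.6, 215.1 and 223.4 CPM in the saline libraries. The groups were far apart compared with their spread (log2 fold change -0.45 ± 0.0277, SE, edgeR adjusted p = 2.5e-05). Irs2, the docking protein below both receptors, fell to 58.3 ± 2.01 CPM with carnosine, against 84.0 ± 3.44 CPM with saline (SD, n = 3 each).

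The insulin receptor gene Insr varied within groups, at 27.0, 56.2 and 25.5 CPM in the carnosine libraries against 59.3, 59.3 and 40.7 CPM in the saline libraries. It did not pass (log2 fold change -0.55, edgeR adjusted p = 0.20), but passed without carnosine replicate 2 (-1.02, adjusted p = 0.0069). The transcription factors that insulin signalling keeps out of the nucleus fell as well, Foxo1 to 14.97 ± 0.812 CPM with carnosine, against 31.1 ± 1.41 CPM with saline (SD, n = 3 each), and Foxo3 by 0.41 on the log2 scale. Igfbp4, a binding protein that holds IGFs, fell (log2 fold change -0.78 ± 0.20, SE), with carnosine replicate 1 at 349.8 CPM and the other carnosine libraries at 202.1 and 212.2 CPM. Igfbp4 missed the threshold without carnosine replicate 3 or saline replicate 2 (adjusted p up to 0.057). The 4 that rose were the kinase subunits Pik3cb (0.37) and Pik3r2 (0.43), the mTORC1 subunit Rptor (0.21) and Nedd4 (0.46), a ubiquitin ligase that binds Grb10. Rptor and Nedd4 were named after their values were seen, and Nedd4 lost its call in 9 of 17 alternative settings, among them without any 1 library other than carnosine replicate 2 (adjusted p up to 0.12). Igf1, the other ligand, had 21 counts over the carnosine libraries and 9 over the saline libraries, too few to test.

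Genes that keep imprints through cell division, or that write and erase methylation, moved both ways as well. Of 24 listed, 21 were tested, of which 6 rose and 4 fell (47.6% called, against 39.4% of all tested genes), with a median log2 fold change of 0.037. Zfp445, a zinc finger protein that binds imprinted control regions, rose to 105.3 ± 3.35 CPM with carnosine, against 81.8 ± 0.872 CPM with saline (SD, n = 3 each; log2 fold change 0.36 ± 0.0371, SE). Its relative in that role, Zfp57, was at 2.64 ± 0.437 CPM with carnosine and 1.55 ± 0.371 CPM with saline, a log2 fold change of 0.77 whose call was lost in 7 of 14 alternatives, among them without carnosine replicate 1 or 2 or saline replicate 1 or 3 (adjusted p up to 0.14). The chromatin genes Hells (0.28), Cbx5 (0.29) and Setdb1 (0.16) rose. Dnmt1, the main maintenance methyltransferase, rose as well, to 650.7 ± 13.4 CPM with carnosine, against 607 ± 4.31 CPM with saline (SD, n = 3 each; log2 fold change 0.10), but not in DESeq2 (adjusted p = 0.097). The methyltransferase gene Dnmt3b (-0.19), the methylcytosine oxidase gene Tet3 (-0.16), Uhrf2 (-0.38) and Trim28 (-0.22), the co-repressor that Zfp57 recruits, fell. In this list 2 fell in the FPKM fits and with the correction for GC content and length. Dnmt1, Uhrf2 and Trim28 were named after their values were seen. Trim28 lost its call in 8 of 17 alternatives, among them without carnosine replicate 3 or any saline library (adjusted p up to 0.14). Tet3 lost its call in 3, which were both fits of FPKM values and the correction for GC content and length (adjusted p up to 0.14).

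Delta, Jagged and Notch genes, the family that Dlk1 resembles, were lower more often than higher. Of 14 listed, 12 were tested, and 2 rose and 10 fell (100% called, against 39.4% of all tested genes, of which 19.6% were higher and 19.8% lower), with a median log2 fold change of -0.74. With a filter of 5 CPM and in the FPKM fits 5 fell, and 1 rose in the FPKM fits and in DESeq2. Those smaller counts are partly of genes left untested. Jag1 and Hey1, both lower, had no value with the 5 CPM filter or in the FPKM fits. They kept their call in all 14 alternatives that gave one. Notch4 had no value in the FPKM fits. Dll4, also lower, had 5 counts with carnosine and 87 with saline. It lay under the filter's 0.733 CPM in every carnosine library and was tested only through its saline libraries. Dll1, lower too, averaged 0.717 CPM with carnosine and 2.34 CPM with saline, and passed the filter through its saline libraries. A gene as low in both groups would not have been tested, so the falls of Dll1 and Dll4 lend the list no support. Jag2, a Notch ligand, had 17.9, 15.9 and 16.5 CPM in the carnosine libraries, against 101.8, 96.8 and 99.6 CPM in the saline libraries. No library lay near the other group (log2 fold change -2.57 ± 0.059, SE, edgeR adjusted p = 2.9e-07). Hes1, a target gene of Notch, fell to 15.8 ± 0.35 CPM with carnosine, against 49.9 ± 3.84 CPM with saline (SD, n = 3 each). The receptors Notch1 (-0.37) and Notch2 (-0.32) fell less. Notch4, at 11.4, 15.5 and 12.2 CPM with carnosine against 5.82, 5.58 and 5.36 CPM with saline, rose (1.22 ± 0.14, SE), as did Rbpj (0.16), which was named after its value was seen. Rbpj lost its call in 1 of 17 alternatives, DESeq2 (adjusted p = 0.055).

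**Figure D3:**
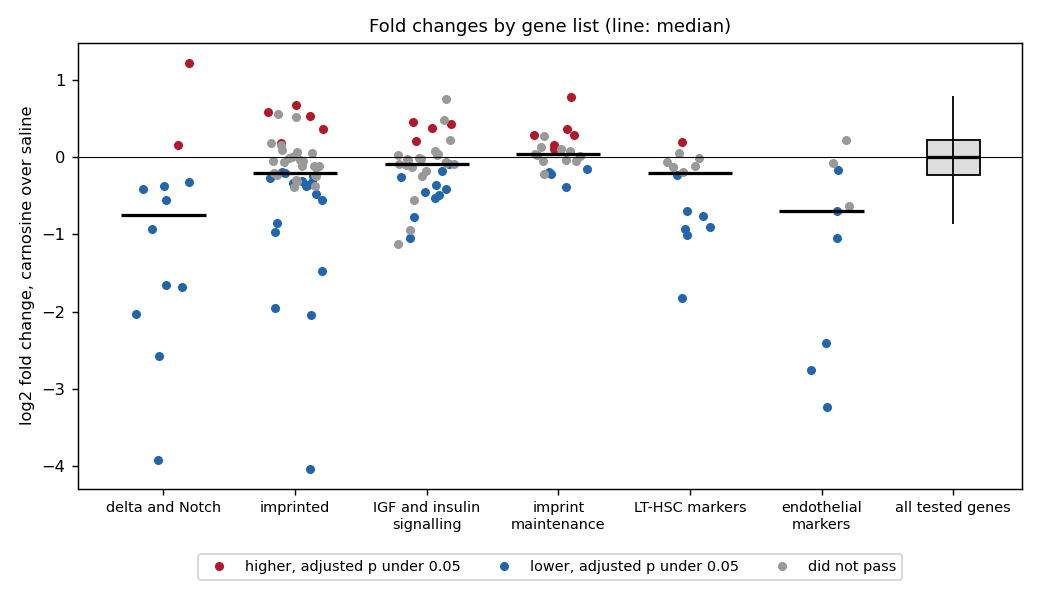
Log2 fold change (carnosine over saline) of each tested gene in 6 lists, coloured by edgeR call, with the list median as a line. The box on the right gives the middle of the distribution over all 15533 tested genes (quartiles, with whiskers from the 5th to the 95th percentile). Medians are -0.74 for delta and Notch genes, -0.20 for imprinted genes, -0.089 for IGF and insulin signalling, 0.037 for imprint maintenance, -0.21 for LT-HSC and gate markers and -0.70 for endothelial markers.

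Markers of cell types changed as well, in directions that differed between lists, and their part in the results was not tested. Their counts of calls stand against 39.4% of all tested genes called, 19.6% higher and 19.8% lower. Of 15 genes of LT-HSCs and of the gate, Flt3, Cd34 and Cd48 among them, all were detected and 14 tested: 1 rose (Kit, by 0.20 on the log2 scale) and 7 fell, among them Slamf1 (-0.93), Mecom (-1.01), Meis1 (-0.70) and Vwf (-1.82), so that 57.1% were called. Flt3, whose protein the sort excluded, was also among the 7 that fell (-0.22). The 6 that did not pass were Procr (-0.19), Hlf (-0.0063), Mllt3 (-0.12), Ly6a (-0.058), Cd34 (-0.13) and Cd48 (0.053). The summed level of the 15 genes was 1173 to 1206 CPM in carnosine libraries and 1324 to 1368 CPM in saline libraries. Kit, Cd34, Flt3 and Cd48 made up most of it. The other 11 genes summed to 217.5 to 241.8 CPM in carnosine libraries and 363.3 to 384.2 CPM in saline libraries. Among these, Vwf and Meis1 differed most in level. Vwf averaged 30.5 CPM with carnosine and 107.4 CPM with saline, and Meis1 52.7 CPM with carnosine and 85.5 CPM with saline. All 9 endothelial genes were tested, with 6 lower and 0 higher (66.7% called). Their sum was 173.5 to 180.6 CPM in carnosine libraries and 229.2 to 237.8 CPM in saline libraries, with Stab2 at 1.55 ± 0.0974 CPM with carnosine and 14.6 ± 1.08 CPM with saline (SD, n = 3 each). Pecam1, also lower (-0.16), lost its call in 9 of 17 alternatives (adjusted p up to 0.11). Emcn (-0.64), Egfl7 (-0.069) and Ly6c1 (0.23) did not pass.

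Marrow stromal cells were listed because mesenchymal cells can express imprinted growth genes, and their level was uneven. Lum had 0 counts in all libraries, Pdgfra and Adipoq 2 each, Lepr and Col1a1 3 each, Sp7 4, Postn 9, Bglap 12, Col3a1 13, Nes 36 and Cxcl12 50. Runx2 was at 78.4 to 103.5 CPM over the 6 libraries, Pdgfrb at 24.5 to 33.3 CPM, Col1a2 at 17.7 to 19.8 CPM and Sparc at 0.863 to 8.37 CPM. Of 15 stromal genes 14 were detected and 4 tested, of which 2 fell (Sparc, with a log2 fold change of -2.93, and Pdgfrb, with -0.29) and 0 rose (50% called). The stromal sum was 137.7 to 140.5 CPM in carnosine libraries and 139.6 to 161.2 CPM in saline libraries. Of 14 erythroid genes, all tested, 8 rose and 3 fell (78.6% called), with a sum of 1848 to 1901 CPM in carnosine libraries and 1584 to 1624 CPM in saline libraries. Of 10 macrophage genes, all detected, 6 were tested, and 2 rose and 2 fell (66.7% called), with a sum of 94.3 to 96.7 CPM in carnosine libraries and 123.7 to 133.2 CPM in saline libraries. The lower sum follows Csf1r, its largest part, at 47.8 ± 1.64 CPM with carnosine and 84.3 ± 4.36 CPM with saline (SD, n = 3 each). Mrc1 fell as well, while Vcam1 and Cd68 rose. Cd68 lost its call in 9 of 17 alternatives. All 9 B and plasma cell genes were tested, and 2 rose and 1 fell (33.3% called), with a sum of 497.9 to 796.9 CPM in carnosine libraries and 485.3 to 500.05 CPM in saline libraries. The 1 that fell, Ms4a1, had 6 counts with carnosine and 62 with saline, and passed the filter through its saline libraries alone. Jchain, the largest part of the sum, did not pass (edgeR adjusted p = 0.11). It had 584.2, 575.6 and 281.4 CPM in the carnosine libraries, against 314.0, 323.6 and 327.6 CPM in the saline libraries.

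**Figure D4:**
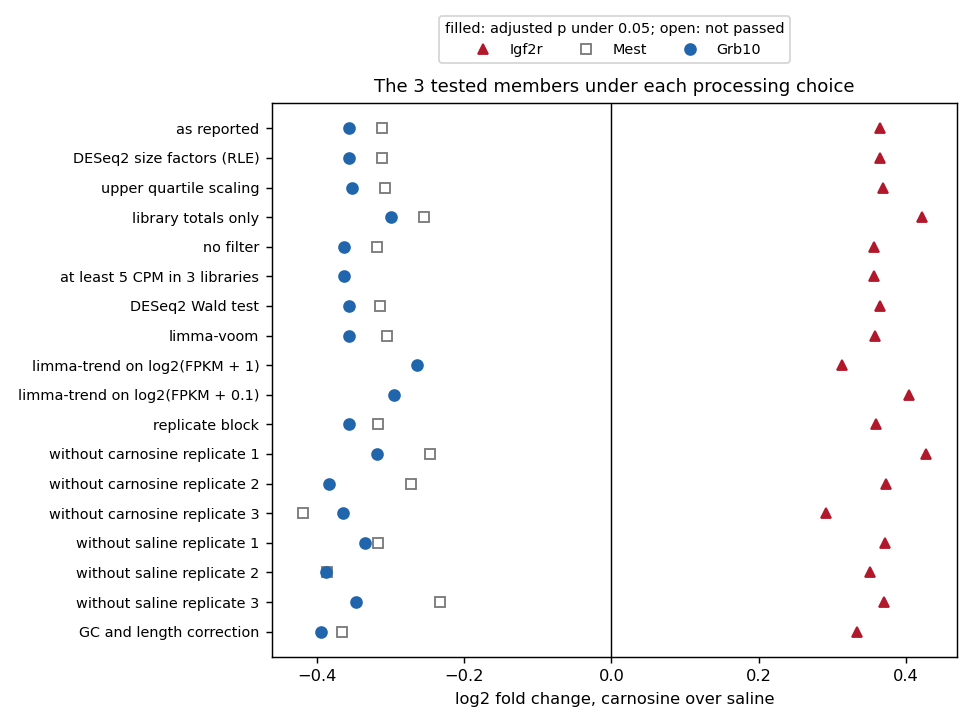
Log2 fold change (carnosine over saline) of Igf2r, Mest and Grb10 under the reported setting and each alternative. Filled symbols passed an adjusted p of 0.05 and open symbols did not, and a missing symbol means that the gene was not tested in that setting. Igf2r stays between 0.29 and 0.43 and Grb10 between -0.39 and -0.26, while Mest does not pass in any setting that tested it.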

How the data were processed

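Poly-A RNA of the sorted cells was read on a NovaSeq machine from paired ends with a stranded kit, per the labels' protocols. Titles of the samples gave the groups. The submitters' processing notes name, without roles, HISAT2, StringTie, edgeR, CASAVA 1.8 and the build GRCm38. Annotation and counting rules: not given in the sources used here. The deposited table gives raw counts and FPKM values for each gene and library, per the file headers. The length behind the deposited FPKM was within 1% of the union of annotated exons for 14.3% of 10713 genes, so levels were compared between genes by count per kilobase of the GENCODE M21 exon union.

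The test on counts was that of edgeR 4.0.16 under R 4.3.3 (filterByExpr with a minimum count of 10, TMM scaling, quasi-likelihood F test, Benjamini-Hochberg adjustment over 15533 genes), after a check on simulated data. CPM values use TMM-scaled totals of the kept genes. For genes outside the filter, pooled counts gave a ratio with an exact 95% interval for counting error only, and genes with at least 10 counts an exact two-sided permutation test. Alternatives were other scalings and filters, DESeq2 1.42.0, limma 3.58.1 on counts (voom) and on log2(FPKM + 1) or log2(FPKM + 0.1) of genes with at least 1 FPKM in 3 libraries, the replicate number as a block, each library left out, and a correction for GC content and length that was chosen after seeing the data. The GC correction covered 15510 genes.

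The members and lists were chosen with earlier results of these data known. Named genes were the 9 members, up to 6 per list by smallest p and those past the threshold with a 1.5-fold change (at most 12 per list), and 3 genes of nearest pattern per called member. The other genes named, such as M6pr, Insr, Igf1, Copg2, Airn, Rian and the gate and stromal genes, were chosen for their role after their values were seen. All 9 members lie at their GENCODE M21 position, and RefSeq supplied the start windows.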

Additional observations from a re-analysis of the deposited data

How the results depend on the processing

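Igf2r (0.29 to 0.43) and Grb10 (-0.39 to -0.26) kept their direction and call in all 17 alternatives, and Mest (-0.42 to -0.23) passed in none of the 14 that tested it. A filter of 5 CPM and the FPKM fits gave no value for Mest. With no filter 2 of the 9 genes were lower, Grb10 and Ndn. Leaving out libraries gave ratios of 0.0653 to 0.353 for H19 (the upper value a limit from 3 counts), 0.544 to 1.57 for Meg3, 0.477 to 2.09 for Dlk1, 0.392 to 0.823 for Peg3, 0.155 to 0.398 for Plagl1 and 0.298 to 0.354 for Ndn. Scaling by library totals only shifted the median of all genes by 0.057 and called 3900 higher and 2501 lower (60.9% higher, against 49.7%). The FPKM fits called 3387 and 2156 (pseudocount 1) or 3371 and 2144 (pseudocount 0.1), each 61.1% higher. DESeq2 called 2149 higher and 2301 lower.

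Counts in the lists moved as follows. Smaller counts with the 5 CPM filter and in the FPKM fits are partly of genes without a value there. Among these were Sgce, Jag1, Hey1, Mrc1 and Ms4a1, each lower in all 14 alternatives that tested it. Ms4a1 lay under the filter's 0.733 CPM in every carnosine library and passed the reported filter only through its saline libraries. Its calls are therefore no support for a fall. Other causes of the smaller counts were not tested. With totals only, 8 imprinted genes, 7 of IGF and insulin signalling and 2 LT-HSC markers were higher, and 6 of IGF and insulin signalling lower. Both FPKM fits gave 11 imprinted, 6 IGF and insulin, 2 imprint maintenance, 5 delta and Notch, 1 macrophage and 0 B and plasma cell genes lower, and 1 delta and Notch, 2 LT-HSC and 1 macrophage gene higher. The 5 CPM filter gave 5 delta and Notch, 1 macrophage and 0 B and plasma cell genes lower and 0 macrophage genes higher. DESeq2 gave 1 delta and Notch and 1 macrophage gene higher, no filter 1 macrophage gene higher, and the GC and length correction 2 imprint maintenance genes lower. Leaving out a library gave 3 to 6 imprinted, 1 to 2 LT-HSC, 0 to 1 endothelial and 1 to 3 macrophage genes higher, and 6 to 11 IGF and insulin genes lower. Of 80 other named genes, 61 kept call and direction, 12 lost a call, 5 gained one and 2, neither called, changed sign. Runx2 was at 0.0316 with totals only, 0.0331 and 0.0400 in the FPKM fits, 0.0106 with the GC and length correction and -0.14 to 0.054 with a library left out, and Col1a2 at -0.0126 to 0.0589 with a library left out.

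The replicate numbers gave no clear sign of pairing, which does not show that the libraries were handled apart. Deviations of libraries with the same number correlated at -0.0027, 0.0272 and 0.0265. Carnosine replicates 2 and 3 correlated best with their own number, and carnosine replicate 1 with saline replicate 3 (0.0107). With the replicate block, 2552 genes were higher and 2679 lower, Igf2r stood at 0.36 (edgeR adjusted p = 0.021), Grb10 at -0.36 (0.0099) and Mest at -0.32 (0.20), and 1 macrophage gene was higher.

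Depth is the limit for H19, Meg3, Dlk1, Peg3, Plagl1 and Ndn, with 9 to 41 counts in all 6 libraries together.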
